A study of Homo sapiens with 16 samples.

Results

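Adenylate kinases were followed at the RNA level in the human neuroblastoma line SK-N-BE(2), in wild-type cells and in cells transfected with forms of HIF-2α, the oxygen-regulated transcription factor encoded by EPAS1. The genes described are AK1, AK3, AK4, AK5 and AK6. They were selected by symbol, 5 of the 63187 genes listed in the table of estimated counts, and all 5 passed the filter on low counts that left 19530 genes for testing. AK4 was chosen with earlier results of these data in view, in which it was among the genes that differed between the cIDR and FL groups once batch was taken into account. Its difference between those groups is therefore given as a description with no test. The other members were chosen by family name.

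Adenylate kinases move a phosphoryl group between adenine nucleotides, interconverting ATP, ADP and AMP, and so couple ATP use to the AMP level that AMP-activated protein kinase (AMPK) senses. AK1 is the main cytosolic form and is abundant in muscle and brain, AK5 is a cytosolic form best known from brain, and AK6 is a nuclear form linked to ribosome assembly. AK3 and AK4 sit in the mitochondrial matrix, where AK3 prefers GTP as phosphoryl donor and AK4 has little catalytic activity in many assays. AK4 is known as a gene induced by low oxygen through hypoxia-inducible factors.

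The study compared 4 groups of 4 libraries. WT cells were wild type, FL cells were transfected with full-length HIF-2α, and NCTAD and cIDR cells with the forms that the design text writes as ΔN-CTAD and Δc-IDR. Each replicate number was also labelled as a batch, so every batch from 1 to 4 held 1 library of each group. All groups grew in 21% oxygen and 10% serum, and poly(A)-selected RNA was sequenced to between 38572655 and 56065781 estimated counts a library. The labels do not give the deleted residues, the vector, the interval between transfection and harvest, whether cells were a pool or a clone, or any empty vector control. Transfection as such and HIF-2α therefore cannot be told apart in any comparison with WT. Nothing in the labels says that the batches were separate cultures, so p-values measure the spread between these libraries.

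The groups follow the sample titles and genotype labels. The library names differ from them, calling the FL libraries WT and the WT libraries CTRL, and they write the line as BE2c, a usual name of a subclone of SK-N-BE(2). Which of these was grown was not settled here. EPAS1 followed the titles: it was between 13.0 and 28.1 CPM (counts per 1 M of the TMM-scaled library total) in WT libraries and at least 1320 CPM in every transfected one. All 9 adrenergic neuroblastoma markers, MYCN among them, averaged 1 or more TPM (the deposited level, scaled to transcript length and library total), with a summed level of 3271 to 3939 TPM over the libraries. The defining markers of blood cells were near 0, at a summed 0 to 0.164 TPM for 4 genes, and those of epithelial cells summed to 0.871 to 3.30 TPM over 4 genes. Of 7 mesenchymal markers, 3 averaged at least 1 TPM, and COL1A1, COL1A2, COL3A1 and PRRX1 did not; the 7 summed to 37.7 to 90.9 TPM. The 4 Schwann cell markers summed to 3.98 to 8.50 TPM, with SOX10 under 1 TPM. These ranges overlapped between the groups.

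The 5 genes lie at separate loci in RefSeq's annotation of GRCh38.p14. AK4 spans chr1:65147552-65232145 on the forward strand and AK5 chr1:77282019-77559966 on the same strand. AK1 spans chr9:127866480-127879621 and AK3 chr9:4709556-4742043, both on the reverse strand. AK6 spans chr5:69350984-69369824 on the reverse strand.

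The stretches before the first RefSeq start of AK4 and of AK5 are shown because hypoxia-inducible factors bind a short core motif. These were also the members of lowest TPM. AK4 was chosen with a difference between constructs in view, and AK5 passed no test. Each stretch is 250 bases long and intergenic up to its start site, apart from the 3 bases that GENCODE 29 adds to the AK4 exon. The sequences run 5′ to 3′ on the forward strand, at chr1:65147302-65147551 for AK4 and chr1:77281769-77282018 for AK5, and capitals mark ACGTG or GCGTG read on either strand.
AK4: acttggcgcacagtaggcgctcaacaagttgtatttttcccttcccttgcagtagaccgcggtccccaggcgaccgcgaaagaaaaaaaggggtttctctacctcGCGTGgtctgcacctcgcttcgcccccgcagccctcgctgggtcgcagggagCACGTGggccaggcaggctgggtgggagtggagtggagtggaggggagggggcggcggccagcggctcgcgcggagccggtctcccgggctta
AK5: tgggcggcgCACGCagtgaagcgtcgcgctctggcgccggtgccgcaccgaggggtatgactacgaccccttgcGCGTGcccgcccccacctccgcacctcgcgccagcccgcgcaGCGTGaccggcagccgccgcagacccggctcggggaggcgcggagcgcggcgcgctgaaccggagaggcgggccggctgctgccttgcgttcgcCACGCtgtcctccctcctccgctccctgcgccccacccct
The AK4 stretch held a GCGTG at position -145 from the start and a CACGTG, which is an ACGTG on both strands, at position -93. The AK5 stretch held GCGTG 4 times, counting both strands, and no ACGTG. With the 50 bases after the start included, 48.4% of 35116 RefSeq promoter windows of 300 bases held at least 1 of these motifs, and 21.4% held ACGTG. All 4 windows of AK4 held a match, with 3, 3, 3 and 1 matches when a palindrome is counted on both strands, and 10.1% of all windows held at least 3. Matches were also present in 2 of 2 windows of AK5, 2 of 2 of AK6 and 1 of 2 of AK1, and in neither window of AK3. A window of AK5 held 4 matches, and 4.40% of all windows held at least 4. The letters G and C made up 69.3% to 74.3% of the AK4 windows, and the background was not matched for this. A match describes the letters of the window and is not evidence of binding.

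AK4 was chosen with a group difference in view, so its standing apart from the other members restates that choice. Within every batch it was lowest in WT cells and highest in cIDR cells. In WT libraries of batches 1 to 4 it measured 2.82, 27.0, 3.47 and 3.12 CPM. In FL libraries it measured 4.03, 32.0, 3.87 and 4.58 CPM. NCTAD libraries held 7.04, 30.7, 7.60 and 7.62 CPM, and cIDR libraries 15.9, 49.4, 13.0 and 11.8 CPM. The batch 2 library was the highest of each group, and because of it the ranges of all 4 groups overlapped when batches were pooled. Without batch 2 the ranges were separate for every pair of groups. In bulk RNA, more cells holding AK4 transcripts and more transcripts per cell cannot be told apart.

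**Figure D1:**
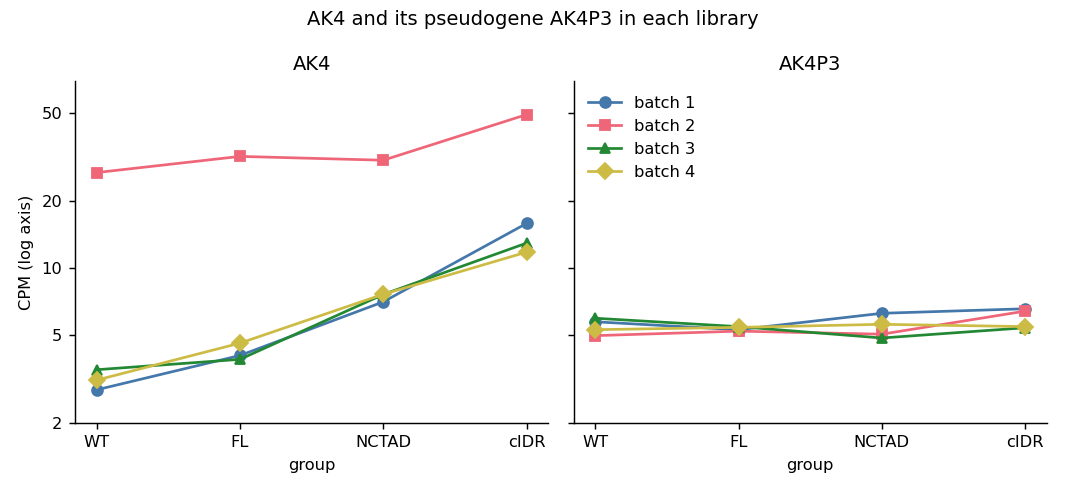
CPM on a log axis of AK4 (left) and of its processed pseudogene AK4P3 (right) in the 16 libraries, by group, with a line joining the 4 libraries of each batch. AK4 is lowest in WT and highest in cIDR in every batch, with batch 2 between 27.0 and 49.4 CPM above all others, and AK4P3 stays between 4.83 and 6.55 CPM.

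The order of the groups was WT, FL, NCTAD and cIDR from lowest to highest in batches 1, 3 and 4. In batch 2 FL and NCTAD changed places, at 32.0 and 30.7 CPM. The highest library exceeded the lowest by 5.65-fold in batch 1, 3.73-fold in batch 3 and 3.79-fold in batch 4, against 1.83-fold in batch 2. cIDR highest with WT lowest in 4 of 4 batches was a pattern that 22 of the 19530 tested genes showed, or 0.113%. The pattern was taken from AK4 and includes the cIDR and FL values on which AK4 was selected, so nothing is read from that share.

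Against the WT library of the same batch, AK4 in cIDR cells was higher by 2.48, 0.87, 1.89 and 1.91 on the log2 CPM scale in batches 1 to 4. The mean of these differences was 1.79 ± 0.67 (SD, n = 4), and 2.09 ± 0.34 over the 3 batches other than batch 2. The log2 difference was smallest in batch 2, where the WT level was highest. In CPM, cIDR exceeded WT by 22.4 in batch 2 and by 13.1, 9.49 and 8.69 in batches 1, 3 and 4.

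NCTAD cells stood between. AK4 exceeded the WT library of the batch by 1.31, 0.18, 1.12 and 1.28 on the log2 scale, a mean of 0.97 ± 0.53 (SD, n = 4), or 1.23 ± 0.10 without batch 2. FL cells were nearest to WT, with log2 differences of 0.51, 0.24, 0.15 and 0.55 and a mean of 0.36 ± 0.20 (SD, n = 4). All 3 constructs were thus above WT in 4 of 4 batches by CPM. Of all tested genes, 5.33% were above WT in 4 of 4 batches in FL cells, 8.85% in NCTAD cells and 10.5% in cIDR cells.

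In the edgeR quasi-likelihood fit with group as the only term, the batch 2 libraries widened the spread of AK4 and no comparison passed a Benjamini-Hochberg adjusted p of 0.05. The log2 fold changes against WT were 0.28 ± 0.87 (SE) in FL, 0.53 ± 0.87 in NCTAD and 1.30 ± 0.88 in cIDR, with edgeR adjusted p of 1, 1 and 1.00. That fit called 0.0102% of tested genes in FL, 0.0256% in NCTAD and 0.0102% in cIDR against WT, and 0.0% in each of NCTAD against FL, cIDR against FL and cIDR against NCTAD. None of the 5 members was among them, and in that fit 0 of the 5 had an unadjusted p under 0.05 in any of the 6 comparisons. DESeq2 called 0 of the 5 as well and gave AK4 no adjusted p, and limma on log2 TPM called 0.

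With the batch as a replicate block in the same edgeR test, AK4 rose in cIDR cells against WT by 1.73 ± 0.21 (SE) on the log2 scale, with an adjusted p of 0.000908. It ranked 15 by p among the 19530 genes, of which 0.486% were called in that comparison. This comparison shares its cIDR libraries with the one on which AK4 was selected, so neither the p nor the rank is independent of the choice. Leaving out 1 of the 8 WT and cIDR libraries at a time gave log2 fold changes of 1.54 to 2.00, which rest on the same selected libraries and add no support.

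In NCTAD cells the blocked edgeR fit gave 0.90 ± 0.21 (SE) and an adjusted p of 0.111, in a comparison where 0.456% of genes were called. That value depended on batch 2. Without WT replicate 2 it was 1.18 with an adjusted p of 0.0295 in the blocked edgeR fit, and without the whole of batch 2 it was 1.23 with an adjusted p of 0.00229. The fit without WT replicate 2 was not planned. It gave the highest of 8 estimates with a single library left out, and the lowest was 0.76, without WT replicate 1. In FL cells the blocked edgeR fit gave 0.33 ± 0.21 (SE) and an adjusted p of 0.920, beside 0.102% of genes called. Single libraries moved this estimate, to 0.12 without FL replicate 2 and 0.64 without WT replicate 2.

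Between constructs, AK4 was higher in cIDR than in FL cells by 1.97, 0.63, 1.73 and 1.36 in batches 1 to 4, a mean of 1.42 ± 0.59 (SD, n = 4) on the log2 CPM scale. The blocked fit estimated 1.39 ± 0.21 (SE). As the contrast that chose AK4, it carries no test, and the share of genes called in it with the block was 0.0307%. Against NCTAD cells AK4 in cIDR cells was higher by 1.17, 0.68, 0.77 and 0.63, a mean of 0.81 ± 0.25 (SD, n = 4), in the same direction in 4 of 4 batches. The blocked edgeR estimate of 0.83 ± 0.20 (SE) had an adjusted p of 0.785, and 0.00512% of genes were called there. NCTAD exceeded FL in 3 of 4 batches, by 0.80, 0.97 and 0.73 in batches 1, 3 and 4 against -0.057 in batch 2. Its blocked edgeR estimate was 0.56 ± 0.21 (SE), with an adjusted p of 0.996 and 0.0% of genes called with the block.

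The amount of EPAS1 RNA differed among the constructs as well. It averaged 2609 ± 906 CPM in FL, 2851 ± 1330 CPM in NCTAD and 4484 ± 1740 CPM in cIDR cells (SD, n = 4). Within batches, cIDR exceeded FL by 0.75 ± 0.47 and NCTAD by 0.69 ± 0.17 on the log2 scale (SD, n = 4), while NCTAD exceeded FL by 0.057 ± 0.44. EPAS1 was thus highest in cIDR cells in 4 of 4 batches, as AK4 was. Against the mean of the other batches of the group, EPAS1 in batch 2 differed on the log2 scale by 0.93 (WT), -0.42 (FL), -1.30 (NCTAD) and -1.24 (cIDR). The batch 2 library was the highest of WT and the lowest of NCTAD and of cIDR, and in FL it lay within the range of the others, while AK4 was highest in batch 2 in every group. EPAS1 counts join endogenous and transfected transcripts, and a shortened construct gives fewer fragments per copy. The part of construct level in the AK4 differences was not tested.

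The deposited TPM values, which are scaled by an effective length that can differ between libraries, gave smaller mean log2 differences from WT, most of all for FL and NCTAD. AK4 measured 0.977, 11.9, 1.76 and 1.26 TPM in the WT libraries of batches 1 to 4. FL libraries held 0.985, 11.7, 1.14 and 1.94 TPM and NCTAD libraries 1.63, 12.1, 1.51 and 2.91 TPM, against 5.97, 19.1, 5.27 and 4.37 TPM in cIDR libraries. By TPM, FL was above WT in 2 of 4 batches, NCTAD in 3 of 4 and cIDR in 4 of 4. The within-batch log2 TPM difference from WT averaged -0.0073 (FL), 0.44 (NCTAD) and 1.67 (cIDR). For NCTAD the differences in batches 1 to 4 were 0.74, 0.026, -0.23 and 1.20. The direction for FL against WT therefore held on the count scale and not on the TPM scale, and that for NCTAD turned in batch 3. Between constructs, NCTAD was above FL by TPM in 4 of 4 batches, batch 2 included, with a mean log2 difference of 0.44. The mean log2 TPM difference was 1.23 for cIDR against NCTAD and 1.67 for cIDR against FL.

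Counts per TPM, relative to the median gene of the library, showed where the scales parted. For AK4 this relative length lay between 1.45 and 2.14 in WT, 1.85 and 2.62 in FL, 1.84 and 3.47 in NCTAD, and 1.71 and 1.89 in cIDR libraries. Its highest value was 2.40 times its lowest, against a median of 1.15 times over all tested genes. AK5 showed a ratio of 2.84, AK3 1.47, AK6 1.14 and AK1 1.11. Which AK4 transcripts were counted was not analysed here.

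AK4 has near-identical copies in the genome whose counts could share its reads. AK4P3, a processed pseudogene row of the table, aligned with the longest coding AK4 transcript at 99.3% identity over 669 of its 6998 bases, and AK4P1 at 99.7% over 672 bases. AK4P3 held 5.54 ± 0.51 CPM over the 16 libraries (SD), more than AK4 in 6 of the 8 WT and FL libraries. Its batch 2 libraries held 4.95 to 6.39 CPM and the others 4.83 to 6.55 CPM, so it did not share the batch difference of AK4. Against WT of the same batch, AK4P3 in cIDR cells differed by 0.19, 0.37, -0.14 and 0.046 on the log2 CPM scale, higher in 3 of 4 batches. Its r with AK4 over the 16 libraries was 0.013, and 0.35 with batch means removed. With the counts of both rows added, an alternative chosen after seeing the data, cIDR cells exceeded WT by 1.04 on the log2 scale. The blocked edgeR fit gave this an adjusted p of 0.000163. That p rests on the cIDR libraries on which AK4 was selected, so it is not independent of the choice. The AK4 counts themselves ran from 135 to 2805 a library.

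AK5, the brain cytosolic form, was low and leaned upward in the transfected cells without passing the test. It measured 1.71, 1.97, 2.90 and 2.90 CPM in the WT libraries of batches 1 to 4. It measured 2.84, 2.35, 3.33 and 3.68 CPM in FL, 2.18, 2.40, 2.68 and 3.48 CPM in NCTAD, and 2.41, 2.57, 3.26 and 3.64 CPM in cIDR libraries. The ranges of the 4 groups overlapped, while within batches FL and cIDR were above WT in 4 of 4 and NCTAD in 3 of 4. Those patterns were shared by 5.33% and 10.5% of all tested genes for FL and cIDR. By TPM, AK5 was above WT in 3 of 4 batches in FL, 3 of 4 in cIDR and 2 of 4 in NCTAD. The blocked edgeR fit gave log2 fold changes of 0.38 ± 0.12 (SE) in FL, 0.19 ± 0.12 in NCTAD and 0.34 ± 0.12 in cIDR cells, with adjusted p of 0.741, 0.957 and 0.673. Each library held 82 to 185 AK5 counts, the fewest of the 5 genes.

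AK1, the main cytosolic form, passed no test between the groups. WT libraries of batches 1 to 4 held 66.4, 52.3, 64.9 and 60.6 CPM and FL libraries 84.3, 53.3, 62.3 and 71.4 CPM. NCTAD libraries held 75.3, 52.0, 60.1 and 62.4 CPM and cIDR libraries 70.9, 51.7, 61.6 and 68.7 CPM. The group ranges overlapped, and batch 2 was the lowest library of each group. In the blocked edgeR fit AK1 differed from WT by 0.14 ± 0.061 (SE) in FL, 0.025 ± 0.061 in NCTAD and 0.044 ± 0.061 in cIDR cells, with adjusted p of 0.920, 1.00 and 0.999. In GENCODE 29, 33.5% of the exonic bases of AK1 also belong to AL157935.2 on the same strand, so reads there cannot be assigned to 1 gene by position.

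AK3, which shares the mitochondrial matrix with AK4, did not share its pattern. WT libraries held 30.4, 30.1, 28.7 and 29.5 CPM, and FL libraries 35.9, 29.6, 27.6 and 24.7 CPM. NCTAD libraries held 29.9, 30.1, 29.2 and 24.4 CPM, and cIDR libraries 31.1, 31.8, 27.2 and 29.4 CPM. The narrow WT range lay inside that of FL, and no group stood apart by CPM. By TPM, AK3 was above WT in 0 of 4 batches in FL, 0 of 4 in NCTAD and 1 of 4 in cIDR. The mean log2 TPM differences were -0.20, -0.17 and -0.15. Blocked edgeR log2 fold changes against WT were -0.021 ± 0.075 (SE) in FL, -0.067 ± 0.075 in NCTAD and 0.0091 ± 0.075 in cIDR cells, with adjusted p of 0.980, 1.00 and 0.999.

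AK6, the nuclear form, ranged from 33.2 to 45.8 CPM over the 16 libraries, with a mean of 38.5 ± 3.36 CPM (SD). Its blocked edgeR log2 fold changes against WT were 0.067 ± 0.060 (SE) in FL, 0.016 ± 0.060 in NCTAD and -0.0094 ± 0.060 in cIDR cells, with adjusted p of 0.924, 1.00 and 0.999. AK6 shares 24.5% of its exonic bases with TAF9 on the same strand, and TAF9 held 53.5 to 65.9 CPM. Of AK1, AK3, AK5 and AK6, none was called in any of the 6 comparisons by edgeR with or without the block, by DESeq2 or by limma. With the block, an unadjusted p under 0.05 came from AK1 and AK5 in FL cells and from AK5 in cIDR cells, each against WT, beside 998 and 1064 of the 19530 tested genes in these comparisons.

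Per transcript length, AK4 was among the lower members. Mean TPM over the 16 libraries was 134 for AK1, 89.1 for AK6, 18.6 for AK3, 5.29 for AK4 and 1.83 for AK5. The cytosolic AK1 and the nuclear AK6 thus lay above both forms of the mitochondrial matrix. The AK4 mean was raised by batch 2, and over batches 1, 3 and 4 it was 2.48 TPM. In the WT libraries of those batches AK4 averaged 1.34 TPM and AK5 1.46 TPM, so their order turned. The summed TPM of the 5 genes averaged 249 ± 18.3 (SD, n = 16), with a range of 226 to 291.

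**Figure D2:**
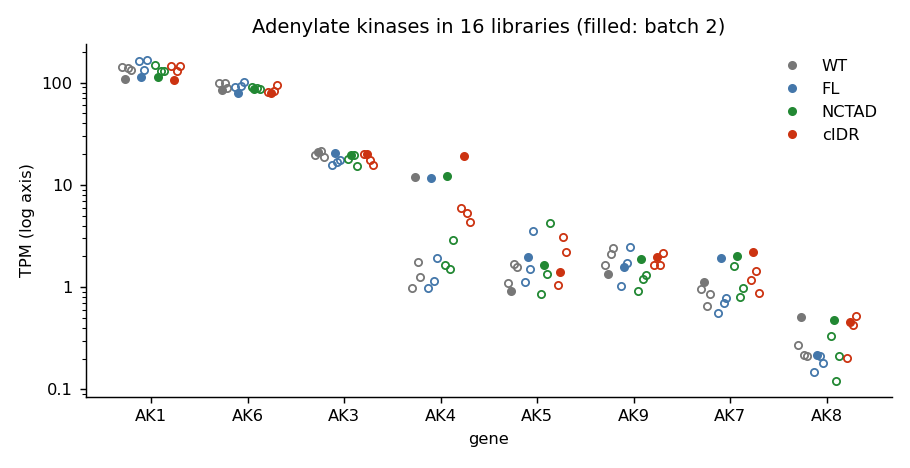
TPM on a log axis of the 5 genes and of AK7, AK8 and AK9 in the 16 libraries, with colours for the 4 groups and filled points for batch 2. AK1 and AK6 lie highest, and the points of AK4 spread from 0.977 to 19.1 TPM while those of AK3 stay within a narrow band.

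The difference of AK4 between batch 2 and the other batches was larger on the log2 scale than its mean difference between any construct and WT. Its 4 libraries held 27.0 to 49.4 CPM of AK4 and the other 12 held 2.82 to 15.9 CPM, with no overlap. The mean log2 difference was 2.49, or 5.60-fold, which placed AK4 at rank 114 of 19530 genes by this difference. By group the difference measured 3.09 (WT), 2.93 (FL), 2.04 (NCTAD) and 1.87 (cIDR), so wild-type cells showed it too. Batch 2 lay above all other libraries for 14.4% of tested genes and below all others for 14.6%, and 0.947% were at least 4-fold above without overlap. All 4 libraries of batch 2 are 1 batch and not replicates of it, so no test was made, and what set the batch apart is not given in the labels, which state 21% oxygen for all samples.

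The other members moved little in batch 2, and mostly the other way. AK1 was at 51.7 to 53.3 CPM in batch 2 and 60.1 to 84.3 CPM elsewhere, a log2 difference of -0.36 with no overlap. AK6 was at 33.2 to 35.8 CPM against 35.9 to 45.8 CPM, a difference of -0.21 and again no overlap. AK3 and AK5 overlapped between batch 2 and the rest, with differences of 0.075 and -0.30. Of the family outside the 5 genes, AK7, an adenylate kinase of motile cilia, was higher in batch 2 by 0.99 on the log2 scale with no overlap. Such a lack of overlap was common, with 14.4% of tested genes above and 14.6% below all other libraries in batch 2.

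Split by source, 68.9% of the variance of AK4 log2 CPM lay between batches, 27.2% between groups and 3.85% in neither. Over all tested genes the medians of these shares were 53.8%, 7.85% and 33.5%. AK5 split into 67.6%, 23.3% and 9.13%, but over a much smaller spread: the SD of log2 CPM over libraries was 0.32 for AK5 and 1.34 for AK4. AK1 had 82.7% of its variance between batches and 6.78% between groups.

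The genes whose log2 CPM tracked AK4 most closely over the 16 libraries were NDUFA4L2, STC1, C8orf58, SLC2A3 and PDE4C. Their Pearson r with AK4 was 0.988, 0.971, 0.970, 0.968 and 0.966, the highest among the 12373 genes that had a symbol and averaged 1 or more on the log2 CPM scale, and 51 genes reached 0.9. NDUFA4L2 encodes a mitochondrial relative of a respiratory chain subunit, STC1 a secreted glycoprotein, SLC2A3 a glucose transporter and PDE4C a phosphodiesterase of cyclic AMP. The libraries share batches and groups, so these r values describe this set of libraries and carry no p. With the batch means removed, the closest genes were NDUFA4L2 at 0.962, C8orf58 at 0.917, the noncoding RNA LINC02348 at 0.910, TNIP1, a regulator of NF-κB signalling, at 0.907, and STC1 at 0.905, and 9 genes reached 0.9.

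NDUFA4L2 was the closest gene by both measures and moved further than AK4. It measured 63.4, 75.8, 75.5 and 143 CPM in the WT, FL, NCTAD and cIDR libraries of batch 2. In the other batches the WT mean was 0.395 CPM, the FL mean 0.908 CPM, the NCTAD mean 1.79 CPM and the cIDR mean 11.4 CPM (n = 3 each). Its batch 2 difference was 5.71 on the log2 scale, against 2.49 for AK4. The members themselves did not track AK4: r over the 16 libraries was -0.66 for AK1, -0.70 for AK6, 0.17 for AK3 and -0.22 for AK5, and with batch means removed -0.012, -0.25, -0.087 and 0.39.

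The wider machinery of adenine nucleotides was set beside the 5 genes as a list of 55 genes. It held the other adenylate kinases, AMP deaminases, nucleotidases, AMPK subunits and their kinases, enzymes of AMP synthesis and salvage, other phosphoryl transfer kinases, and ADP/ATP carriers. Of these, 48 passed the filter, and 0 rose and 0 fell in any of the 6 comparisons at an adjusted p of 0.05 in edgeR, with or without the block. At an unadjusted p under 0.05, the fit without the block held 1 gene in 1 comparison, AK8 in cIDR against FL cells, and the blocked fit 0 to 2 genes a comparison, beside 119 to 277 of the 19530 tested genes without the block and 419 to 1164 with it. With at most 0.486% of all genes called in any comparison, a count of 0 among 48 lies near the background. DESeq2 and limma on log2 TPM also called 0. The list's median log2 fold change against WT was 0.043 (FL), 0.034 (NCTAD) and 0.040 (cIDR), and that of all tested genes 0.014, 0.019 and 0.0097. In the edgeR fit without the block, the log2 fold changes of AK7 against WT were 0.16 ± 0.37 (SE), 0.29 ± 0.37 and 0.43 ± 0.37 in the same order of groups. Those of AK8 were -0.71 ± 0.42, -0.10 ± 0.41 and 0.36 ± 0.41, and those of AK9 -0.19 ± 0.18, -0.32 ± 0.18 and -0.14 ± 0.18.

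In batch 2, 3 of the 48 genes lay above all other libraries and 8 below, beside the 14.4% and 14.6% of all tested genes. Those above were AK7, the adenosine deaminase gene ADA, at a log2 difference of 0.88, and the AMPK subunit gene PRKAB2, at 0.38. Those below included the ADP/ATP carrier genes SLC25A4 and SLC25A5, at -0.21 and -0.26, the thymidylate kinase gene DTYMK, at -0.44, and the nucleoside diphosphate kinase gene NME2, at -0.21. The others were ADSS2, NT5C2, NT5C3A and UCK1, between -0.35 and -0.26. The largest difference in the list was the 0.99 of AK7, beside 2.49 for AK4.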

How the data were processed

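RNA-seq of 16 SK-N-BE(2) libraries was analysed, 4 groups of 4. The deposited tables hold estimated counts per gene, unscaled, and TPM, both made by the authors with Salmon per the submitters' processing notes, which also name fastp, STAR, featureCounts and GRCh38 without versions. Estimated counts, 15.5% of them not whole, were rounded. Groups were compared with edgeR 4.0.16 (quasi-likelihood test, TMM, low-count filter by group, 1 model over 16 libraries, group as the only term, Benjamini-Hochberg adjustment over 19530 genes, threshold 0.05) in R 4.3.3. CPM used TMM-scaled totals, and log2 CPM a prior count of 2. The SE is the log2 fold change over the square root of F. The lowest count in a library was 82 for AK5 and 135 for AK4.

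The labels give each replicate number as a batch, so same-numbered libraries are paired. Deviations from group means correlated with a mean r of 0.308 between same-numbered libraries (0.0674 to 0.712) and -0.0945 between others. The replicate block was the alternative fit, and lowered the biological coefficient of variation from 0.245 to 0.108. No 2 libraries of a group agreed within sampling noise, the lowest chi-square per degree of freedom being 7.24.

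Other alternatives were median-of-ratios scaling, no filter, DESeq2 1.42.0, limma 3.58.1 on log2 of TPM plus 1 or 0.1, fits on 8 libraries, leaving out each library, and leaving out batch 2. The test was checked on simulated counts. Named genes are the 5 members, EPAS1, the 5 genes closest to AK4 by Pearson r with and without batch means, member pseudogenes, and other adenylate kinases; some items are not reported here. Genes named from the nucleotide list in batch 2, the overlapping genes AL157935.2 and TAF9, and the cell type markers without a mean of 1 TPM were named after their values were seen. The members and lists were chosen with earlier results of these data known. Promoter windows are from RefSeq's GRCh38.p14 table, and transcripts and exons from GENCODE 29.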

Additional observations from a re-analysis of the deposited data

Results flagged for a closer look

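Of 20 sets of 4 libraries examined, 5 members of 1 group each, 5 held 1 library far from the other 3, where chance gives about 1 in 20. AK4 accounted for 4 of them, and in each the distant library was that of batch 2, so these are 1 shared batch seen 4 times and the chance rate for separate sets does not apply to them: WT replicate 2 at 27.0 CPM, FL replicate 2 at 32.0 CPM, NCTAD replicate 2 at 30.7 CPM and cIDR replicate 2 at 49.4 CPM. The gap to the nearest library made up 0.973, 0.975, 0.976 and 0.891 of the group's range. The last was AK3 in NCTAD replicate 4, at 24.4 CPM, just past the limit for 4 values.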

How the results depend on the processing

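AK4 in cIDR cells against WT kept its direction in every alternative run. Its log2 fold change of 1.30 passed the threshold with the replicate block (1.73), with batch 2 left out (2.10 with and without the block) and with AK4P3 counts added under the block (1.04). All these fits use cIDR libraries on which AK4 was selected, so the passes and the shared direction add no support. NCTAD against WT passed with batch 2 left out (1.23 in both fits), while on the TPM scale its differences in batches 1, 3 and 4 were 0.74, -0.23 and 1.20. FL against WT turned to -0.0027 and -0.0063 on log2 of TPM plus 1 and 0.1. cIDR against FL moved to 1.61 on log2 of TPM plus 0.1 and to 1.72 without batch 2 in both fits. Without the block, leaving out single libraries moved AK4 from -1.13 (without FL replicate 2) to 1.83 (without WT replicate 2) in FL, from -0.30 (without NCTAD replicate 2) to 2.08 (without WT replicate 2) in NCTAD and from 0.57 (without cIDR replicate 2) to 2.85 (without WT replicate 2) in cIDR cells against WT. NCTAD against FL ran from -0.58 to 1.66, cIDR against FL from 0.29 to 2.43 and cIDR against NCTAD from 0.036 to 1.60. The extremes were all libraries of batch 2. Under the block the values against WT ran from 0.12 to 0.64 in FL, 0.76 to 1.18 in NCTAD and 1.54 to 2.00 in cIDR cells.

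Small values changed sign. AK1 in NCTAD turned to -9.1e-05 and -8.1e-05 by TPM. AK3 in cIDR turned to -0.14 and -0.15 by TPM and -0.023 and -0.022 without batch 2, with and without the block. AK6 turned to -0.020 and -0.020 in FL and -0.062 and -0.063 in NCTAD by TPM, and to -0.012 in NCTAD without batch 2 in both fits. Leaving out single libraries gave -0.071 to 0.11 for AK1 in NCTAD and -0.018 to 0.13 in cIDR, -0.13 to 0.046, -0.096 to 0.00062 and -0.022 to 0.050 for AK3 in FL, NCTAD and cIDR, and -0.015 to 0.14, -0.029 to 0.060 and -0.060 to 0.046 for AK6. None of these values passed a test.

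With the block, the genes called against WT numbered 20 (FL), 89 (NCTAD) and 95 (cIDR), with 6 in cIDR against FL and 1 in cIDR against NCTAD, beside 2, 5, 2, 0 and 0. DESeq2 called 11, 17 and 8 against WT, 2 in NCTAD against FL and 3 in cIDR against NCTAD. Without batch 2 the counts with the block were 16, 62 and 46 against WT, 5 in NCTAD against FL and 10 in cIDR against FL, and without the block 10, 39, 33 and, in cIDR against FL, 5. limma called 1 (TPM plus 1) and 2 (plus 0.1) in NCTAD against WT, and the 8-library fit 1 in cIDR against WT. Leaving out single libraries gave 2 to 4 in NCTAD against WT without the block. With the block it gave 10 to 23 in FL, 43 to 83 in NCTAD and 49 to 72 in cIDR against WT, 0 to 5 in NCTAD against FL, 0 to 8 in cIDR against FL and 0 to 2 in cIDR against NCTAD. The cause was not tested.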
